A study of Mus musculus with 2 samples.

Results

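The p53 targets and BCL2-family survival genes described here are 10 genes chosen by name: Trp53, which encodes p53, its inhibitor Mdm2, the p53 targets Cdkn1a, Gdf15, Fas and Bax, and the BCL2-family genes Bcl2l1, Mcl1, Bcl2l11 and Bid. They were chosen with earlier results of these data known. All 10 are listed among the 11349 protein-coding genes of the deposited table, each under a single gene ID. RNA sequencing was run on primary mouse macrophages from the abdominal cavity after 24 h with TGF-β1, a growth factor of wound repair and scarring. The WT group and the Trem2 knockout group have 1 library each, both with TGF-β1, so an untreated level was not measured. The WT column is headed C57, with no substrain. Sample titles mark the second group as Trem2-/-, whereas its genotype label reads TREM-2 knockdown. The sources used here do not give age, sex, the strain of the knockout, the knockout allele or the number of mice per library.

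p53 is a transcription factor that is kept low by the ubiquitin ligase MDM2 and accumulates when DNA or ribosomes are damaged. It then switches on genes that stop the cell cycle, repair DNA or promote cell death, and it also induces Mdm2, its own inhibitor. Whether a stressed cell dies through its mitochondria is set by the BCL2 family: BAX and BAK open the outer membrane, proteins such as BCL-xL and MCL1 hold them back, and BH3-only proteins such as BIM and BID carry the death signal to both. Most of this regulation acts on proteins, through stability, cleavage and binding, which RNA levels do not show.

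The values are FPKM, fragments scaled to gene length and library size, so levels of different genes can be set side by side. Each group has a single library, so no difference could be set against replicates. Genes are therefore called higher or lower by size alone, at 2-fold or more on the log2(FPKM + 1) scale, which understates differences of low genes. Counting intervals hold 95% by the exact Clopper-Pearson method and apply to the ratio of FPKM, from an estimated depth of 13.5 M fragments for WT and 12.4 M for the knockout. They cover counting error only and leave out the variation between mice or cultures. By the same estimate the members rest on 166 (Bid, knockout) to 11737 (Mcl1, WT) fragments in a library.

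Trem2 itself was at 135 FPKM in WT against 13.7 FPKM in the knockout, which checks the direction of the labels. Over both libraries 9962 genes averaged 1 FPKM or more, here called expressed, and in the knockout 3.48% of them were higher by 2-fold or more and 13.7% lower. Their median log2 fold change was -0.31, so a gene at the same FPKM in both libraries stood above most others. Relative to that median 7.66% were higher and 6.57% lower. Scaling the libraries by their median ratio gave 758 higher and 816 lower genes in place of 347 and 1364, and rescaling both libraries to the same total gave 257 and 1798. Of 13 macrophage markers 11 were listed, without Cd163 and Timd4, and their summed level was 9603 FPKM in WT and 12007 in the knockout, most of it Lyz2 at 7962 and 10171 FPKM. Adgre1, which encodes F4/80, was at 133 and 148 FPKM and Csf1r at 46.1 and 53.1 FPKM. By any size 7 of the 11 were lower and 4 higher, with a median log2 fold change of -0.94, or -0.63 relative to all genes. Of the 7, 5 were lower by 2-fold or more: Itgam, Fcgr1, Mrc1, Icam2 and Gata6. Gata6, the transcription factor of resident large peritoneal macrophages, was at 14.0 and 2.67 FPKM. Mertk at 16.6 and 8.18 FPKM and Cd14 at 77.8 and 50.1 FPKM were the others. All 8 fibroblast markers were listed as well, with a summed level of 237 FPKM in WT against 408 FPKM in the knockout, 3 higher by 2-fold or more (Col1a1, Col1a2 and Thy1) and 1 lower (Pdgfra). The 7 listed of 8 mesothelial and epithelial markers summed to 17.1 and 4.79 FPKM, and those of mast cells, 3 of 5, to 10.9 and 2.67 FPKM. Neutrophil markers summed to 33.4 and 18.3 FPKM over 3 of 6, B cell markers to 9.59 and 10.6 FPKM over 3 of 6, and endothelial markers to 5.92 and 1.41 FPKM over 2 of 5. Of 9 T and NK cell markers only Lck was listed, at 0.846 and 1.76 FPKM. The part of these cell types and macrophage states in the differences below was not tested, and in RNA from a mixture fewer cells of a type and less RNA per cell cannot be told apart.

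Of the 10 members 3 stood 2-fold or more above WT in the knockout, Gdf15, Fas and Bcl2l11, where 3.48% of expressed genes did. Lower by that size were 2 of 10, Bcl2l1 and Bid, where 13.7% did. Measured from the median gene Cdkn1a joined the higher members, making 4 higher and 2 lower, where 7.66% and 6.57% of expressed genes were. Because the members and the gene lists below were chosen with earlier results of these data known, their counts beside these shares test no excess. In WT the order of levels ran from Mcl1 through Bax, Cdkn1a, Mdm2, Gdf15, Bcl2l1, Bid, Trp53 and Fas to Bcl2l11. In the knockout it ran from Mcl1 through Gdf15, Cdkn1a, Bax, Fas, Mdm2, Bcl2l11, Trp53 and Bcl2l1 to Bid. Gdf15 and Cdkn1a, at 125 and 120.5 FPKM in the knockout, lay close together, as did Mdm2 and Gdf15 in WT at 24.1 and 23.1 FPKM. With 1 library per group the order has no spread to set it against.

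**Figure D1:**
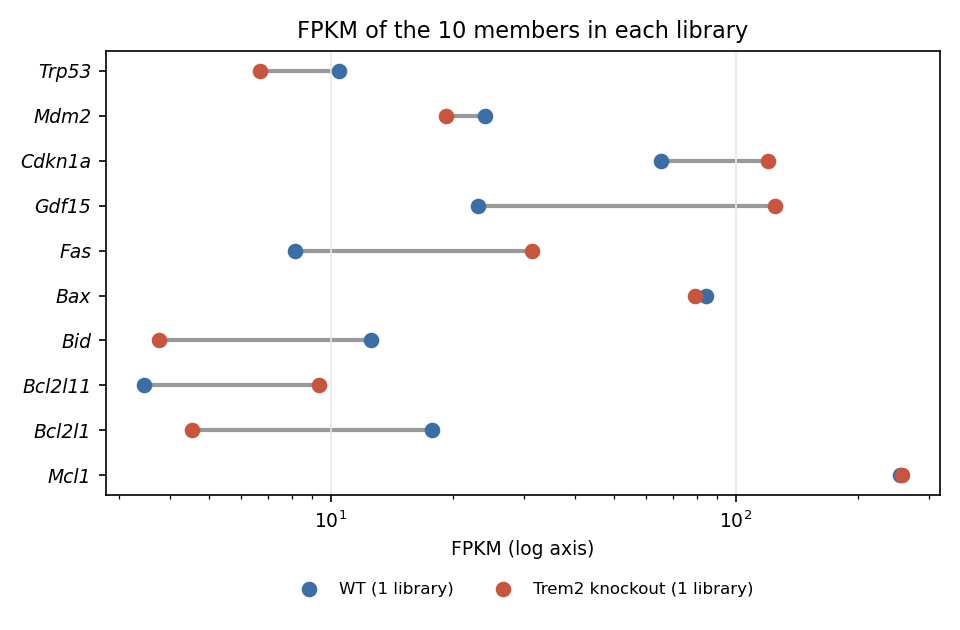
FPKM on a log axis of the 10 members in the WT library (blue) and the Trem2 knockout library (red), 1 library each, joined by a grey line. Gdf15, Fas and Bcl2l11 stand to the right in the knockout, Bid and Bcl2l1 to the left, and the points of Bax (84.4 and 79.3 FPKM) and Mcl1 (255 and 257 FPKM) nearly coincide.

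The starts of the p53 target genes are shown because p53 acts on them through DNA sites near or within the gene, and because the targets among the members did not move together. RefSeq gives 15 annotated starts for the 10 members (GRCm38.p6), and the 250 bases before each were searched on both strands. The decamer consensus of p53 was found before 4 of these starts, those of Cdkn1a, Mdm2, Bax and Trp53, and 7.13% of 32851 mouse promoters of the same length hold it. A separate pattern was a pair of CATG cores with any 6 bases between them, with no decamer required. It was found before 1 of 15 starts, the upstream start of Cdkn1a, and in 0.490% of all promoters. That start lies 2790 bases before the second annotated start of Cdkn1a, and the paired cores, which overlap the second of its decamers, begin 48 bases before it. In the lines below, capitals mark decamer matches and the paired cores, and the sequences are read 5′ to 3′ on the strand of the gene. Gdf15 and Fas, which of these targets differed most between the libraries, are shown for contrast, since neither stretch holds these letters. The Fas start is that of the deposited gene, but no transcript of the GENCODE M21 annotation held the bases checked after it. For 8 of the 10 members a transcript did. A match is a description of the letters only, and no match says nothing of sites elsewhere in the gene.

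Cdkn1a, upstream start, chr17:29090729-29090978, + strand: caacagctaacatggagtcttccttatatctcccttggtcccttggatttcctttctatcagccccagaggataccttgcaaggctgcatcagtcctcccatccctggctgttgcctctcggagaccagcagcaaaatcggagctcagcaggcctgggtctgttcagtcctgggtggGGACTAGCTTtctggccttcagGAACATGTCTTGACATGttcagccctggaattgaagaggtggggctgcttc

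Mdm2, chr10:117710759-117711008, - strand: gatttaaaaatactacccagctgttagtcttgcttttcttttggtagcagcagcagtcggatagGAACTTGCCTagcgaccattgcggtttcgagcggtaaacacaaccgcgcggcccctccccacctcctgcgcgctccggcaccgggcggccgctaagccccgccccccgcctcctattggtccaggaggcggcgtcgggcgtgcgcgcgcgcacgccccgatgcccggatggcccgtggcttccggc

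Bax, chr7:45466899-45467148, - strand: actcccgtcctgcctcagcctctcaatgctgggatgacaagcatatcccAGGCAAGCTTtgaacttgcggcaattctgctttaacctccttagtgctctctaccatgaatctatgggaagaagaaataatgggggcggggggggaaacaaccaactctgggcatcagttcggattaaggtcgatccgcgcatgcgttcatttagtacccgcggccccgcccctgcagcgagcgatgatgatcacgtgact

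Gdf15, upstream start, chr8:70632457-70632706, - strand: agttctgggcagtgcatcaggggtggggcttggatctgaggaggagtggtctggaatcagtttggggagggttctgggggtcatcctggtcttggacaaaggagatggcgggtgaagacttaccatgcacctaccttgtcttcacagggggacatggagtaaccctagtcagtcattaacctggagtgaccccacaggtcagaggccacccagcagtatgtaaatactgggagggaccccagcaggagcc

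Fas, chr19:34290409-34290658, + strand: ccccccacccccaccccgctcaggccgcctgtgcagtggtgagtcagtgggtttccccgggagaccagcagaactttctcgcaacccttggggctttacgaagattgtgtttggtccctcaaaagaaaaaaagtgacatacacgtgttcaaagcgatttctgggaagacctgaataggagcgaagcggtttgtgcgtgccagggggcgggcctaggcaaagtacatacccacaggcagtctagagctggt

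The cAMP response element TGACGTCA and the ATF4 composite core TGATGNAA were found before none of the 15 starts, against 1.55% and 3.45% of all promoters. The FOXO core GTAAACA was found before Bcl2l11 and Mdm2 (3.17% of all promoters). The heat shock element core GAANNTTC and the AP-1 site TGANTCA were both found before Fas, and 6.69% and 6.75% of all promoters hold them. The 7 motifs were chosen with the fold changes known.

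Trp53, the gene of p53 itself (chromosome 11, 69580359 to 69591873, mm10, + strand), was at 10.5 FPKM in WT against 6.68 FPKM in the knockout. It was thus 1.57-fold lower (counting interval 1.37 to 1.80), within 2-fold, and at a log2 fold change of -0.27 relative to the median gene. Mdm2, the ubiquitin ligase that targets p53 and a p53 target in turn (chromosome 10, 117688875 to 117710758, - strand), was at 24.1 and 19.2 FPKM. Its log2 fold change of -0.31 lay at percentile 49.6 of all genes, level with their median. Within a library, where no scaling between libraries enters, Mdm2 stood at 2.30 times the FPKM of Trp53 in WT and 2.88 times in the knockout.

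Among 18 listed genes of p53 and its regulators, 17 were expressed. Of these 1 was higher by 2-fold or more, Cdkn2a, and 2 were lower, Sirt1 and Ppm1d, near the 3.48% and 13.7% of expressed genes, with a median log2 fold change of -0.39 beside -0.31 for all genes. Cdkn2a, whose ARF product blocks MDM2, was low in both libraries, at 0.474 FPKM in WT against 2.24 FPKM in the knockout. Only through its knockout value is Cdkn2a listed and counted as expressed, so it could not have been called lower. The gene also makes the CDK inhibitor p16, and a value per gene does not separate the products. Sirt1, a deacetylase of p53, was at 6.20 and 2.45 FPKM, and Ppm1d, a phosphatase that p53 induces and that switches the pathway off, at 5.16 and 1.94 FPKM. Neither was past 2-fold relative to the median gene or with a pseudocount of 5 FPKM. Mdm4, an MDM2 relative that also inhibits p53, was at 3.01 and 6.33 FPKM, 2.10-fold by ratio but 0.87 on the log2(FPKM + 1) scale. Of the kinases that phosphorylate p53 after DNA damage, Atm was at 1.25 and 0.871 FPKM and Chek2 at 8.02 and 7.09 FPKM.

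Cdkn1a (chromosome 17, 29090979 to 29100722, + strand) encodes p21, the CDK inhibitor through which p53 holds cells in G1. It was at 65.2 FPKM in WT against 120.5 FPKM in the knockout, 1.85-fold higher (counting interval 1.75 to 1.96). On the log2(FPKM + 1) scale this was 0.88 as deposited, under 2-fold, and 1.18 relative to the median gene, past 2-fold. Cdkn1a against Trp53 went from 6.23 in WT to 18.0 in the knockout. The gene lies 19.2 Mb from Trem2 on the same chromosome.

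Gdf15 (chromosome 8, 70629393 to 70632456, - strand) encodes a secreted stress hormone of the TGF-β superfamily, a target of p53 and also of the ATF4 and CHOP stress response. It was at 23.1 FPKM in WT against 125 FPKM in the knockout, 5.41-fold higher (counting interval 4.94 to 5.92). Its log2 fold change of 2.38 was the highest of the 10 and lay at percentile 99.6 of all genes. Within the WT library Gdf15 was higher than 82.3% of listed genes, and within the knockout library higher than 96.8%.

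Fas (chromosome 19, 34290659 to 34327770, + strand) encodes the death receptor that recruits FADD and caspase-8 when bound by FAS ligand. It was at 8.13 FPKM in WT against 31.4 FPKM in the knockout, 3.87-fold higher (counting interval 3.30 to 4.56), at percentile 99.3 of fold changes. Of 9 expressed death receptor genes Fas was the only 1 higher by 2-fold or more and 4 were lower, beside 3.48% and 13.7% of expressed genes, with a median log2 fold change of -0.77. The adaptor Fadd was at 7.05 and 0.580 FPKM, 12.2-fold lower (counting interval 8.30 to 18.6). Ripk1, a kinase of the TNF receptor complex, was at 8.63 and 2.93 FPKM, its adaptor Tradd at 11.1 and 4.55 FPKM, and the Fas apoptosis inhibitor Faim at 9.97 and 3.82 FPKM. Relative to the median gene Fadd alone of these 4 stayed past 2-fold, and with a pseudocount of 5 FPKM 1 of the list was lower. Casp8, the initiator caspase, was at 31.8 and 18.3 FPKM, and its decoy Cflar at 12.3 and 10.9 FPKM. Fasl, Tnfsf10 and Tnfrsf25 are not among the listed genes.

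**Figure D2:**
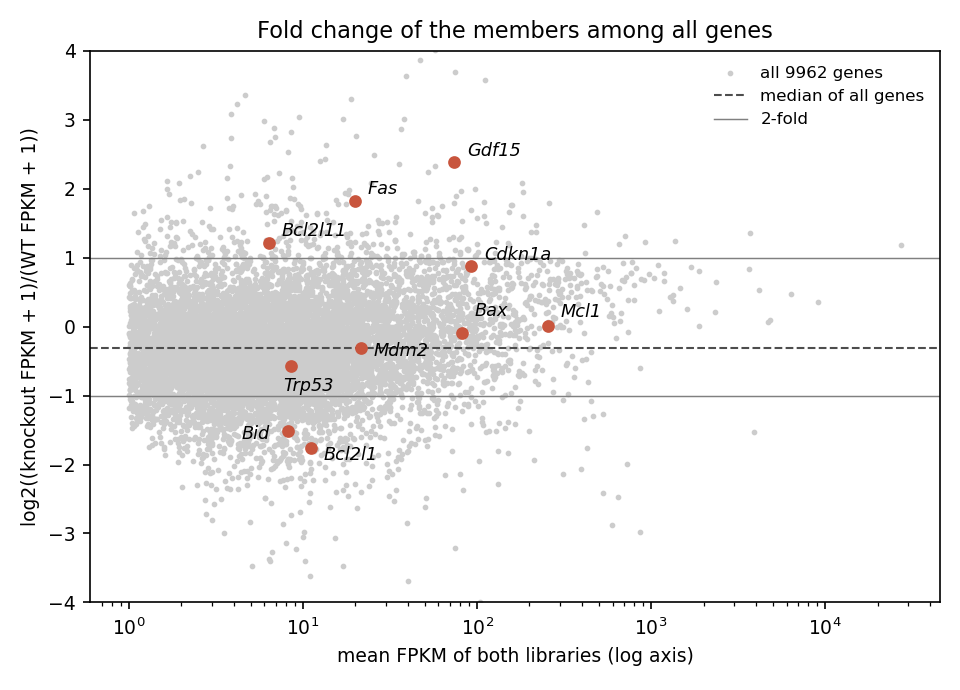
log2((knockout FPKM + 1)/(WT FPKM + 1)) against the mean FPKM of both libraries (log axis) for 9962 genes (grey), with the 10 members in red. The dashed line is the median of all genes at -0.31, solid lines mark 2-fold, and 13 genes lie outside the axis. Gdf15, Fas and Bcl2l11 stand above the upper line, Cdkn1a just under it, and Bid and Bcl2l1 below the lower line.

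The wider set of 39 p53 target genes, which includes Gdf15, Fas, Cdkn1a, Mdm2 and Bax, was listed in full, and 35 were expressed. Of these 3 were higher by 2-fold or more (3.48% of all genes) and 5 lower (13.7% of all genes), with 27 in between. Their median log2 fold change was -0.02 as deposited and lay 0.28 above that of all genes. Counted from that median 8 were higher and 2 lower, beside 7.66% and 6.57% of expressed genes. Without the members 30 were expressed, 1 higher and 5 lower as deposited, or 5 and 2 relative to the median gene. Besides Gdf15 and Fas, Polk, a DNA polymerase that copies past lesions, was higher at 3.53 and 8.11 FPKM. Just under 2-fold on the log2(FPKM + 1) scale were Pmaip1 (NOXA) at 15.3 and 30.8 FPKM, Phlda3, an inhibitor of AKT, at 15.7 and 30.7 FPKM, Bbc3 (PUMA) at 5.86 and 11.9 FPKM, and Rps27l at 95.7 and 174 FPKM. Relative to the median gene these 4 and Cdkn1a passed 2-fold, as did the first 3.

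Among the 5 lower p53 targets, Sesn2, a sestrin that restrains mTORC1 and an ATF4 target too, was at 15.5 FPKM in WT against 1.47 FPKM in the knockout, 10.5-fold lower (counting interval 8.19 to 13.9). Tigar, which lowers glycolytic flux, was at 5.89 and 2.26 FPKM, and Fdxr, a mitochondrial electron donor, at 5.62 and 1.68 FPKM. Sertad1 was at 18.1 and 6.51 FPKM, and Ppm1d, given above, completed the 5. Relative to the median gene Sesn2 and Sertad1 alone stayed past 2-fold. Of the targets within 2-fold, Ccng1 was at 63.9 and 62.9 FPKM, Plk2 at 72.4 and 71.0 FPKM and Gadd45a, 1.40-fold higher, at 65.9 and 92.2 FPKM. Targets of p53 thus stood on both sides, from 2.38 for Gdf15 to -2.74 for Sesn2 on the log2 scale.

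**Figure D3:**
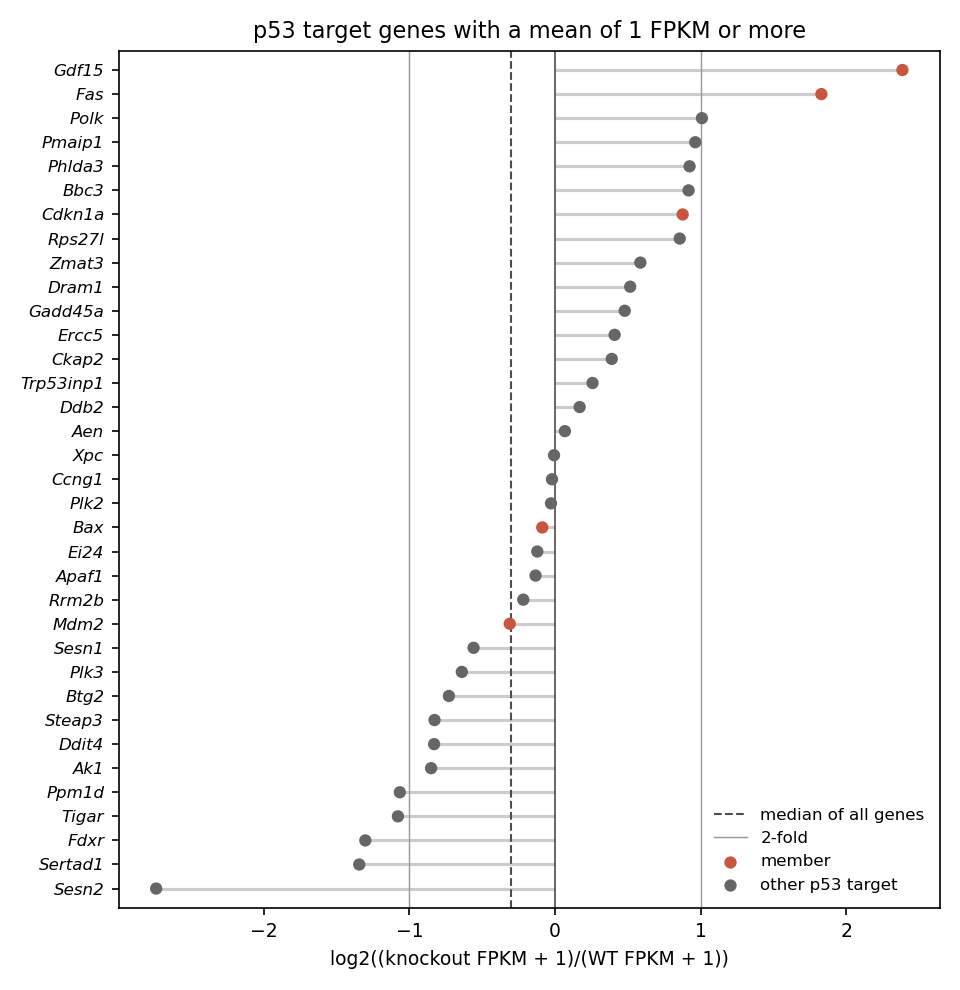
log2((knockout FPKM + 1)/(WT FPKM + 1)) of the 35 expressed p53 target genes, 1 library per group, ordered by value. Members are in red and the others in grey, with the median of all genes dashed and 2-fold as thin lines. Values run from -2.74 for Sesn2 to 2.38 for Gdf15 with 27 genes between the 2-fold lines.

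Bax (chromosome 7, 45461697 to 45466898, - strand), the pore-forming effector that p53 can induce, was at 84.4 FPKM in WT against 79.3 FPKM in the knockout. The ratio of WT to knockout was 1.06 (counting interval 0.993 to 1.14), so at the deposited scaling the difference lay within counting error. Its log2 fold change was -0.09 as deposited but 0.22 when counted from the median gene, so its direction depends on the scaling. Of its exon bases 12.2% overlap those of Gm45808 on the same strand, between which reads can be split. Bak1, the other effector, was at 28.8 and 21.3 FPKM, and Bok is not listed.

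Bcl2l1 (chromosome 2, 152780668 to 152831728, - strand) encodes BCL-xL, which binds BAX, BAK and BH3-only proteins, and by splicing the shorter, death-promoting BCL-xS. It was at 17.8 FPKM in WT against 4.55 FPKM in the knockout, 3.90-fold lower (counting interval 3.40 to 4.48), at percentile 2.19 of fold changes. A value per gene does not separate the isoforms. Mcl1 (chromosome 3, 95658788 to 95663176, + strand), the short-lived anti-apoptotic protein, was the most abundant member at 255 and 257 FPKM. Its ratio of knockout to WT was 1.01 (counting interval 0.984 to 1.04), and its log2 fold change ran from -0.15 with both totals equal to 0.34 when scaled by a trimmed mean, so the sign follows the scaling.

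Of the 7 listed anti-apoptotic genes 4 were lower by 2-fold or more and 0 higher, beside 13.7% and 3.48% of expressed genes, with a median log2 fold change of -1.07 beside -0.31. Relative to that median 2 were lower, Bcl2l1 and Bcl2a1d, beside 6.57% of expressed genes. The 4 are Bcl2l1 and the Bcl2a1 copies, NF-κB-induced survival genes of blood cells. Bcl2a1b was at 421 FPKM in WT and 2.11-fold lower in the knockout, Bcl2a1d at 96.6 and 34.9 FPKM and Bcl2a1a at 84.6 and 35.0 FPKM. These copies are close paralogs between which reads can be split, so their sum was also taken, 602 FPKM in WT against 269.9 FPKM in the knockout. How shared reads were counted is not known. Reads counted in every copy would inflate this sum and the shares and total below. Bcl2 was low, at 2.21 and 0.976 FPKM, as was Bcl2l2 at 2.66 and 2.68 FPKM. The Bcl2a1 copies made up 68.5% of the summed anti-apoptotic FPKM in WT and 50.4% in the knockout, Mcl1 29.0% and 48.1%, and Bcl2l1 2.02% and 0.849%. The sum itself was 879.7 FPKM in WT against 535 FPKM in the knockout.

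**Figure D4:**
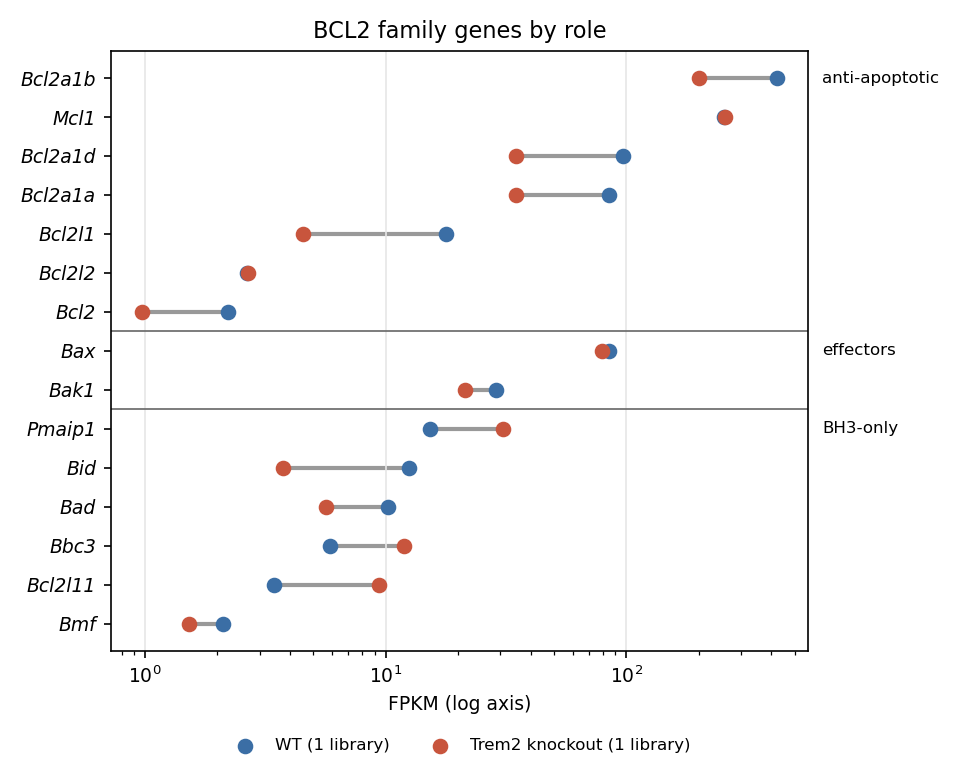
FPKM on a log axis of the 15 listed BCL2-family genes in the WT (blue) and Trem2 knockout (red) library, 1 library each, grouped as anti-apoptotic genes, BAX/BAK effectors and BH3-only genes. The anti-apoptotic genes stand lower in the knockout or, for Mcl1 and Bcl2l2, at nearly the same level, and the BH3-only genes stand on both sides.

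BH3-only genes stood in both directions. Bcl2l11 (chromosome 2, 128126038 to 128162547, + strand) encodes BIM, which binds every anti-apoptotic member and is needed for the removal of many blood cells. It was at 3.45 FPKM in WT against 9.35 FPKM in the knockout, 2.71-fold higher (counting interval 2.40 to 3.07), at percentile 97.7 of fold changes. Bid (chromosome 6, 120891930 to 120916853, - strand), which caspase-8 cleaves to link death receptors with mitochondria, was at 12.5 and 3.76 FPKM, 3.34-fold lower (counting interval 2.80 to 3.98). Its exons overlap those of Bcl2l13 on the opposite strand over 17.7% of their bases. The libraries mark strand, but the sources used here do not say whether the counting used it, and Bcl2l13 was at 3.77 and 5.31 FPKM. In the same list Pmaip1 and Bbc3 were higher by ratio, as given above, and Bad was at 10.2 and 5.68 FPKM and Bmf at 2.11 and 1.53 FPKM. Of 6 listed BH3-only genes 1 was higher by 2-fold or more and 1 lower, beside 3.48% and 13.7% of expressed genes. Relative to the median gene 3 were higher and 1 lower, beside 7.66% and 6.57%. Bik and Hrk are not among the listed genes.

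Ratios within a library do not depend on scaling between libraries, and of the 6 computed those of Mcl1 and Bax to Bcl2l1 differed most. Bax stood at 4.75 times Bcl2l1 in WT and 17.4 times in the knockout. Mcl1 stood at 14.4 times Bcl2l1 in WT and 56.6 times in the knockout. Bid against Bcl2l1, both lower in the knockout, was 0.707 and 0.827. Mcl1 exceeded Bcl2l11 73.9-fold in WT and 27.5-fold in the knockout library.

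**Figure D5:**
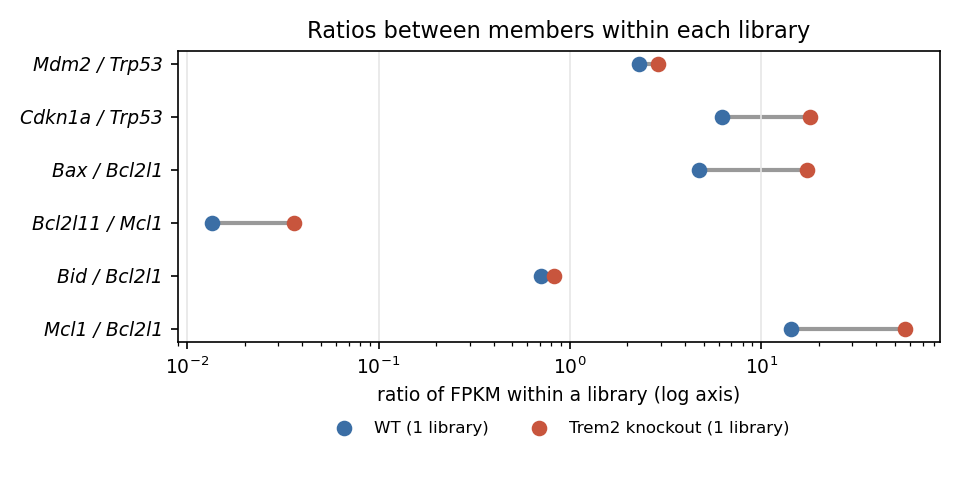
Ratio of FPKM between pairs of members within the WT (blue) and the Trem2 knockout (red) library, 1 library each, on a log axis. Ratios to Bcl2l1 of Bax (4.75 and 17.4) and Mcl1 (14.4 and 56.6) and of Cdkn1a to Trp53 (6.23 and 18.0) stand furthest apart, while Bid to Bcl2l1 and Mdm2 to Trp53 lie close.

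Downstream of the BCL2 family, cytochrome c released from mitochondria assembles the apoptosome, which activates caspases. Of 12 expressed apoptosome and caspase genes 1 was lower by 2-fold or more and 0 were higher, beside 13.7% and 3.48% of expressed genes. The lower gene was Diablo, which frees caspases from their inhibitors, at 5.57 and 1.99 FPKM. Relative to the median gene Diablo was within 2-fold, at -0.83 on the log2 scale. The median log2 fold change of the 12 was -0.45, or -0.14 relative to all genes. The initiator Casp9 was at 6.73 and 3.91 FPKM and Cycs, cytochrome c, at 47.3 and 36.3 FPKM. Among 7 expressed inhibitors of apoptosis 0 passed 2-fold in either direction, with Birc3 at 6.15 and 9.86 FPKM, Xiap at 8.70 and 5.67 FPKM, and Birc2 at 8.28 and 12.2 FPKM. The 11 other BCL2-related genes had 0 past 2-fold as deposited, the largest differences being in Becn1 (11.4 and 5.60 FPKM), Bnip2 (35.9 and 19.4 FPKM) and Bnip3 (24.7 and 41.6 FPKM).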

How the data were processed

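Per the labels' protocols, RNA of 1 WT and 1 Trem2 knockout sample was turned into dUTP libraries and read on an Illumina sequencer. The authors deposited FPKM per gene, per the file headers, as 1 table with a column for each library, and the submitters' processing notes name mm10. The sources used here give no aligner, quantifier or annotation. Every listed gene reached 0.501 FPKM in at least 1 library, and lower genes were not analysed here. Sample titles gave the groups, and both columns matched by name.

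Fold changes compare FPKM with a pseudocount of 1 on the log2 scale, over 9962 genes averaging 1 FPKM or more, and a gene counts as higher or lower at 2-fold. Of symbols with several gene IDs the ID with the highest mean was kept. With 1 library per group no test was run. Depth was estimated from single-transcript genes of GENCODE M21 whose FPKM times length falls on regular steps. Of 159 WT and 219 knockout products below 2000, 65.4% and 72.6% lay within 0.1 steps of a whole number. A step fixed beforehand would give 20.0% by chance. The step used was the best fit to these same products within a preset range, so these shares do not test the estimate. The range also limits the depths that could be found. It was assumed that 300 steps make 1 fragment. The depths, the fragment numbers and the widths of the counting intervals depend on this assumption. Fas and Cdkn1a have other gene models in M21, so the shortest lengths at which FPKM times length has 6 decimals, 1801 and 2223 bases, were used. A multiple of these lengths would give narrower counting intervals.

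The 10 members, the 11 pathway lists and the 8 marker lists were chosen with earlier results of these data known. The rule for naming genes takes all members, all measured genes of the 3 BCL2-family lists, and from other pathway lists the genes past 2-fold or, failing that, the 3 that differ most. Named outside it, after their values were seen, were Mdm4, Atm, Chek2, Casp8, Cflar, Casp9, Cycs, Phlda3, Rps27l, Ccng1, Plk2, Gadd45a, Bcl2l13 and the cell type markers. Upstream sequences are from RefSeq (GRCm38.p6), matched by symbol. Alternatives were other pseudocounts, filters, scalings and thresholds. The 2-fold rule and the counting intervals were tested on simulated fragments that varied by counting error only. The depth estimate and the inferred gene lengths were not tested in this way. Software was Python 3.11.15 with pandas 2.3.3, numpy 2.4.6, matplotlib 3.10.9 and scipy 1.17.1.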

Additional observations from a re-analysis of the deposited data

How the results depend on the processing

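Under 5 other pseudocounts and scalings Gdf15, Fas, Bcl2l1 and Bid were past 2-fold each time, and Bcl2l11 was past it in 4 of 5, but at 0.76 on the log2 scale with a pseudocount of 5 FPKM. Cdkn1a passed 2-fold in 2 of 5. Bax and Mcl1 changed direction with the scaling, under 2 and 1 of them. At 4-fold 1 member was higher and 0 lower, or 2 and 0 relative to the median gene, and with a pseudocount of 5 FPKM 1 was lower relative to it. Over all genes, in place of 347 higher and 1364 lower, a pseudocount of 5 FPKM gave 174 and 394, a pseudocount of 0.1 FPKM 2075 lower, and a mean of 5 FPKM or more 746 lower. Scaling by the median ratio gave 758 and 816, a trimmed mean 765 and 816, a 1.5-fold threshold 995 and 3254, and a 4-fold threshold 51 and 113. The expressed p53 targets were 8 higher and 3 lower when scaled by the median ratio, beside the 758 and 816 over all genes. No paired analysis was possible because only 1 library was made per group. Depth limits low genes most, such as Cdkn2a, whose ratio of 4.73 has a counting interval of 2.23 to 13.7.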

Other observations

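A list of 16 genes holds CDK inhibitors, Cdkn1a among them, G1 cyclins and kinases, and also Rb1 and E2f1, which are none of these. Of the 16, 3 were higher in the knockout by 2-fold or more, Cdkn1c, Cdkn2a and Cdkn2b, and 0 lower, beside 3.48% and 13.7% of expressed genes. Cdkn2a counts as expressed only through its knockout value, as given above. A pseudocount of 5 FPKM or a mean of 5 FPKM or more left 1 higher, and a pseudocount of 0.1 FPKM gave 3 higher and 2 lower. Their median log2 fold change was 0.52, or 0.83 above that of all genes. Counted from that median 7 were higher, Rb1 (10.1 and 16.9 FPKM) among them, beside 7.66% of expressed genes. Cdkn1c, which encodes the CDK inhibitor p57, was at 3.49 FPKM in WT against 23.3 FPKM in the knockout, 6.68-fold higher. Cdkn2b, which encodes p15 and is a TGF-β target, was at 1.32 and 4.03 FPKM. Cdkn1b (p27) was at 10.2 and 17.1 FPKM, Cdkn2c (p18) at 6.73 and 12.7 FPKM, and the kinase Cdk6 at 4.46 and 1.83 FPKM. The cyclin Ccnd1, at 2.55 and 0.912 FPKM, was 2.80-fold lower by ratio and Ccnd2 2.01-fold lower. The kinase Cdk2, at 1.85 and 3.46 FPKM, and the cyclin Ccnd3, at 3.43 and 4.84 FPKM, stood higher in the knockout. Rb1, E2f1 and the genes from Cdkn1b to Ccnd3 were named after their values were seen. Of the 16 genes 10 were higher and 6 lower by any size as deposited, Rb1 among the higher and E2f1 (9.89 and 9.20 FPKM) among the lower. Among 4 genes of MCL1 turnover, Fbxw7, which marks MCL1 for destruction, was at 7.18 and 1.44 FPKM, 4.97-fold lower, and the other 3 were within 2-fold. Lower by 2-fold or more as deposited were 13.7% of expressed genes.

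Gdf15 is also a target of ATF4, and 6 genes of that integrated stress response were added after seeing the data. Atf4 itself was at 294 FPKM in WT against 103 FPKM in the knockout, Trib3 at 28.0 and 2.47 FPKM, Asns at 49.3 and 11.6 FPKM, and Chac1 at 12.5 and 0.308 FPKM. Ddit3, which encodes CHOP, was at 98.0 and 79.3 FPKM and Atf3 at 206 and 182 FPKM. The 6 were lower in the knockout library as deposited, by ratios from 1.13 for Atf3 to 40.6 for Chac1, and Gdf15 was 5.41-fold higher. Of all expressed genes 31.8% were higher in the knockout by any size. The ratio of Chac1 rests on 6 estimated fragments in the knockout, with a counting interval of 19.2 to 116. Relative to the median gene Ddit3 and Atf3 lay at 0.00 and 0.13 on the log2 scale. Whether ATF4 bears on the level of Gdf15 in these cells was not tested.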
